A study of Neodesmus pupukensis with 4 samples.

Results

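The early step of a shake-flask culture of a green microalga was described here by comparing RNA sequenced after 45 h of growth with RNA sequenced after 14 h. The members were all assembled transcript sequences whose mean over both libraries was 10 reads or more, a rule that 13920 of 14905 sequences met. Of the 985 sequences left out, 192 had 0 reads in both libraries. The strain was UTEX2341, called Neodesmus pupukensis in the sample labels and Chlorella minutissima in the series' design text. Cells were grown fed-batch at 25 °C in 500 mL flasks with 200 mL of medium, shaken at 150 rpm, and 1 library of total RNA stands for each of 14, 45, 57 and 88 h. The sample annotation also gives 5 days of culture for every library. How that relates to the labelled hours was not worked out here. No group carried a genotype or an added agent, and the sources used here do not say whether the harvests came from 1 flask. With 1 library per time, no p-value was calculated, and each ratio compares a pair of libraries, not replicated conditions. The 95% intervals given are exact conditional binomial (Clopper-Pearson) intervals and cover counting error only.

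Green microalgae in flasks pass from rapid division towards a slower state as nutrients and light per cell decline, and in oil-forming strains carbon then moves from new cells into starch and neutral lipid. In dividing cells much of the messenger RNA typically encodes ribosomal proteins and the photosynthetic apparatus. The identifiers have a component and a sequence number, the form in which a transcript assembler groups likely variants or alleles of a gene, and the files pair 0 of them with a gene name. No enzyme, pathway or marker could therefore be followed by name, and the results are ordered by size of change, by component, by abundance and by later course. An RPKM value is a read count scaled to sequence length and to the library total. A ratio is that of RPKM values with 0.5 read added to each count. A lower ratio can mean less of a transcript per cell or more of other transcripts in the same total, which cannot be told apart here.

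Most of the transcriptome stayed within 2-fold between 14 h and 45 h, and the larger differences leaned upward. A level 2-fold or more above that of 14 h was found at 45 h for 1446 sequences (10.4%), and one 2-fold or more below it for 809 (5.81%). The lean grew with the size of the difference, since the 4-fold limit was passed upward by 231 sequences (1.66%) and downward by 43 (0.309%). The 8-fold limit left 20 higher (0.144%) and 2 lower (0.0144%). Over all members the log2 ratio had a median of -0.02, and its 1st and 99th percentiles were -1.58 and 2.19. Among the higher sequences the median log2 ratio was 1.41, and among the lower ones -1.26.

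Counting error was small for most of these sequences. The median width of the 95% interval was 0.48 on the log2 scale. The whole interval lay beyond 2-fold for 784 higher sequences (5.63%) and 336 lower ones (2.41%). It reached a ratio of no change for 40 of the 1446 higher and 17 of the 809 lower sequences. Of the 11665 sequences within 2-fold, 8955 had an interval that lay inside 2-fold as a whole. At the edge of the read floor, the 79 sequences with 10 to under 11 mean reads had a median log2 ratio of 0.35, with 15 higher and 3 lower. The 75 sequences just under it, with 9 to under 10 mean reads, had a median of 0.22, and 20 of them were higher and 6 lower.

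**Figure D1:**
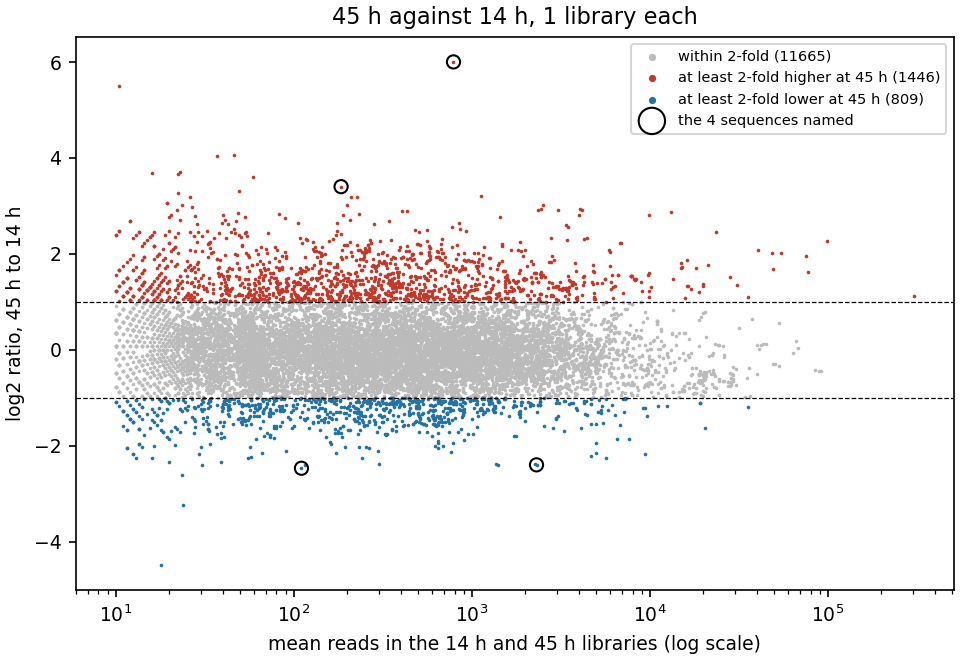
Log2 ratio of 45 h to 14 h (vertical axis) against mean reads in both libraries (horizontal axis, log scale) for the 13920 sequences, 1 point each. Dashed lines mark 2-fold, the 1446 higher and 809 lower sequences are coloured, and circles mark the 4 sequences given by identifier, which have log2 ratios of 6.0, 3.40, -2.47 and -2.40.

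Short sequences differed more often than long ones, most clearly in the lower direction. In the quartile of 351 to 1287 bases, 13.8% were higher and 10.9% lower. In the quartile of 4117 to 25689 bases, 6.78% were higher and 2.1% lower. The interquartile range of the log2 ratio was 1.09 in the shortest and 0.67 in the longest quartile. Read number did not change steadily with length, with medians of 142, 430.5, 550.0 and 267 mean reads from the shortest to the longest quartile. The difference between short and long was also present among sequences with 303.5 mean reads or more, where counting error is small. There 8.71% of the shortest quartile and 1.74% of the longest were lower, and 11.3% and 6.78% were higher. By reads alone the spread was narrower, from 13.2% higher and 6.74% lower in the quartile with fewest reads to 8.62% and 4.14% in that with most.

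The sequence with the highest ratio among those with at least 100 mean reads was comp756_c0_seq1, of 2456 bases, the single sequence of its component. Its RPKM was 0.815 at 14 h and 53.3 at 45 h, then 1.61 at 57 h and 1.79 at 88 h. It was thus high in the 45 h library alone, at 1554 reads against 25, 48 and 53 in the others. On the log2 scale 45 h stood 6.0 above 14 h (95% interval 5.46 to 6.66), or 64.1-fold, and no other sequence with 100 mean reads or more exceeded a log2 ratio of 3.40.

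The second, comp6379_c0_seq1, of 1388 bases and also alone in its component, followed another course. Its RPKM was 1.90 at 14 h and 20.4 at 45 h, then 8.02 at 57 h and 36.3 at 88 h. It stood high at 45 h and again at 88 h, with the 57 h library between these and 14 h. On the log2 scale 45 h stood 3.40 above 14 h (2.90 to 3.98), and 88 h stood 2.17 above 57 h.

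The lowest ratios were less extreme, and both sequences were lower again at 57 h than at 45 h. The sequence comp8294_c0_seq1, of 386 bases, had an RPKM of 39.2 at 14 h and 6.98 at 45 h, then 3.63 at 57 h and 2.79 at 88 h. Its log2 ratio at 45 h was -2.47 (-3.08 to -1.94), resting on 189 and 32 reads. The sequence comp3744_c0_seq2, of 1776 bases, had an RPKM of 176 at 14 h and 33.4 at 45 h, then 11.9 at 57 h and 14.6 at 88 h. It rests on far more reads, 3916 and 705, and its log2 ratio of -2.40 (-2.52 to -2.28) has an interval that lies within that of comp8294_c0_seq1, so these sequences have no order. The other 3 sequences of its component had log2 ratios of -2.37, -2.40 and -2.39, values that are not independent if reads were counted for more than 1 of them, which the sources used here do not say.

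**Figure D2:**
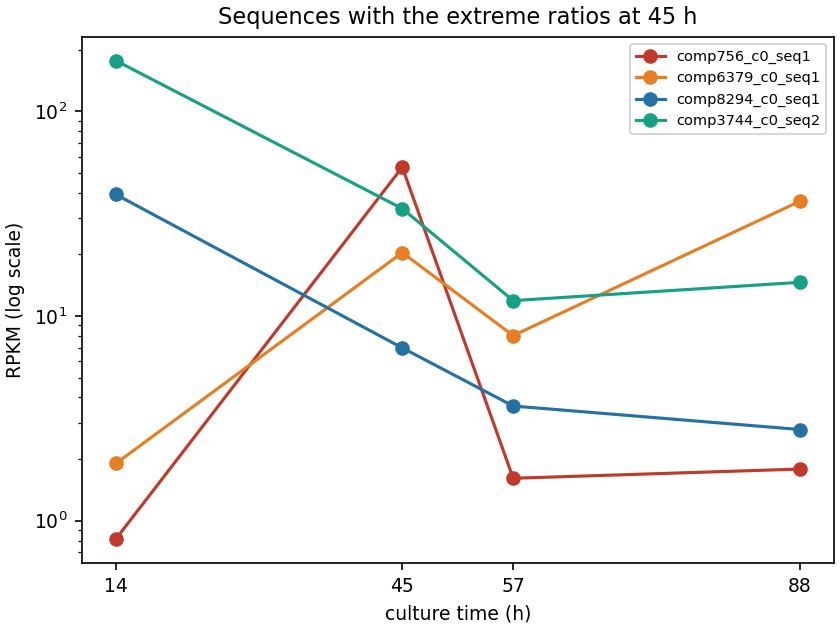
RPKM (vertical axis, log scale) at the 4 culture times (horizontal axis, h) for the 4 sequences printed by identifier, 1 library per point. One raised sequence stands high at 45 h alone and the other also at 88 h (36.3), while both lowered ones are below their 14 h value at every later time.

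The 20 sequences at least 8-fold higher came from 14 components and were mostly rare at 14 h. Of these, 13 had under 10 reads at 14 h. They passed the read floor only through their 45 h reads. A limit of 8-fold favours few reads at 14 h, so nothing is concluded from their rarity there. Over all 20 the RPKM at 45 h ranged from 0.781 to 155. The interval lay above 2-fold for all 20. One of them, of 1199 bases, was without a read (0) at 14 h and had 21 at 45 h. The lower 95% limit of its log2 ratio was 2.45, and no fold is given for it, so 19 sequences were 8-fold higher with reads in both libraries. At 57 h, 17 of the 20 were at least 2-fold below their 45 h level. The median log2 ratio of 57 h to 45 h was -1.55 over the 1446 higher sequences and -0.74 over all 13920. The 20 were chosen for a high 45 h level, which favours a fall from it. In 9 of the 20, from 7 components, the level was 2-fold or more lower at 57 h than at 45 h and then 2-fold or more higher at 88 h than at 57 h. The log2 ratios of 57 h to 45 h in these 9 lay between -4.60 and -1.20, and those of 88 h to 57 h between 1.23 and 3.41. The ends -4.60 and 1.23 belong to 1 sequence, of 1635 bases, with 1 read at 57 h and 3 at 88 h. Its RPKM of 0.152 at 88 h was below its 0.196 at 14 h. That course, high at 45 h and at 88 h relative to 57 h, was seen in 251 of the 13920 sequences and in 116 of the 1446 higher ones. The higher ones were chosen for their 45 h level, which favours that course. Of those 116, which came from 68 components, 33 belonged to a single component. The 2 sequences at least 8-fold lower rested on 35 and 44 reads at 14 h, and on 1 and 4 reads at 45 h.

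A component groups sequences that probably come from 1 gene or from near copies, so its sequences were also counted together. Of the 6216 components, 5579 had a sequence over the floor. Every such sequence was at least 2-fold higher in 568 components (10.2%) and at least 2-fold lower in 380 (6.81%). In 4334 components every sequence stayed within 2-fold. A further 160 held higher sequences beside others within 2-fold, 129 held lower sequences beside others within 2-fold, and 8 held both higher and lower ones. Among the 2410 components in which 2 or more sequences passed the floor, every sequence was higher in 177 (7.34%) and lower in 92 (3.82%).

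Sequences of a component had close ratios. In those 2410 components the standard deviation of the log2 ratio had a median of 0.06 and its 90th percentile 0.39, against 0.75 over all sequences. The range within a component reached 1 log2 unit or more in 219 of them (9.09%). Any read counted for more than 1 sequence would make such ratios alike, and its part in this closeness was not tested. The 1446 higher sequences came from 736 components and the 809 lower ones from 517. The 3 components with most higher sequences held 154 of them (10.7%), and the 3 with most lower sequences held 47 of those (5.81%).

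The component with most higher sequences had 82 of its 88 sequences over the floor at least 2-fold higher. Its median log2 ratio to 14 h was 1.79 at 45 h, then 0.95 at 57 h and 2.66 at 88 h. It therefore stood lower at 57 h than at 45 h and highest at 88 h. Its sequences had few reads, with a median of 21.5 mean reads. The largest component, with 212 sequences in all and 154 over the floor, had 48 higher and 0 lower at 45 h. Its median log2 ratio was 0.70, on a median of 14.5 mean reads. Another component had 24 of 29 sequences higher, and its median log2 ratio was 1.29 at 45 h, then 2.78 at 57 h and 2.55 at 88 h.

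Among components in which every sequence was higher, the most sequences over the floor was 8, in 3 components. The first had log2 ratios of 1.26 to 1.40 at 45 h and a median of -1.38 at 57 h and -1.36 at 88 h. The second had 1.83 to 2.01 at 45 h, then medians of -0.05 and 0.26. The third had 1.95 to 4.07 at 45 h, then medians of -0.65 and -0.46. None of these 3 components kept its 45 h level, and being chosen for high ratios at 45 h favours a later fall. Over all components with every sequence higher, the median of component medians was -0.51 at 57 h and -0.3 at 88 h. Over all components it was -0.94 and -0.98. In 2 components with 8 sequences over the floor every sequence was lower, at -1.59 to -1.41 and at -1.58 to -1.16. Both were lower still afterwards, with medians of -2.82 and -3.84 at 57 h and of -2.63 and -3.74 at 88 h. Over all components with every sequence lower, the median of component medians was -2.89 at 57 h and -2.81 at 88 h.

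Abundance was compared between sequences by RPKM, which accounts for length. The first 10 places changed more than the longer lists. Of the 10 sequences with the highest RPKM at 14 h, 2 were among the 10 highest at 45 h. The lists of 100 shared 76 sequences, those of 500 shared 382 (76.4%) and those of 1000 shared 745 (74.5%).

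The 10 highest sequences at 14 h, of 517 to 1662 bases and each from its own component, all had a lower RPKM at 45 h. Their log2 ratios lay between -0.98 and -0.38, so that none was 2-fold lower, and their ranks at 45 h ran from 7 to 27. The first of them, of 1662 bases, had an RPKM of 4748 at 14 h and 3568 at 45 h, then 7701 at 57 h and 8639 at 88 h. Being chosen for a high value at 14 h, they could be low at 45 h by that choice alone. The wider list of 14 h gave a like picture, with 88 of its 100 sequences below a log2 ratio of 0 and 84 of these above -1. Over those 88 the median was -0.68, and 72 of them had a higher RPKM at 57 h than at 45 h. A median below 0 is set by how the 88 were picked. Their low level at 45 h also favours a rise to 57 h, so nothing is concluded from the 72. The 100 sequences highest at 88 h, a library outside this comparison, had a median log2 ratio of 45 h to 14 h of -0.55. It is no separate set, since 72 of the 100 highest at 14 h are also in it. In that list 78 of 100 were below 0, against 51% of all 13920 sequences, 11 were 2-fold or more higher and 1 was 2-fold or more lower. The most abundant transcripts of the late culture were thus mostly a little lower at 45 h than at 14 h.

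**Figure D3:**
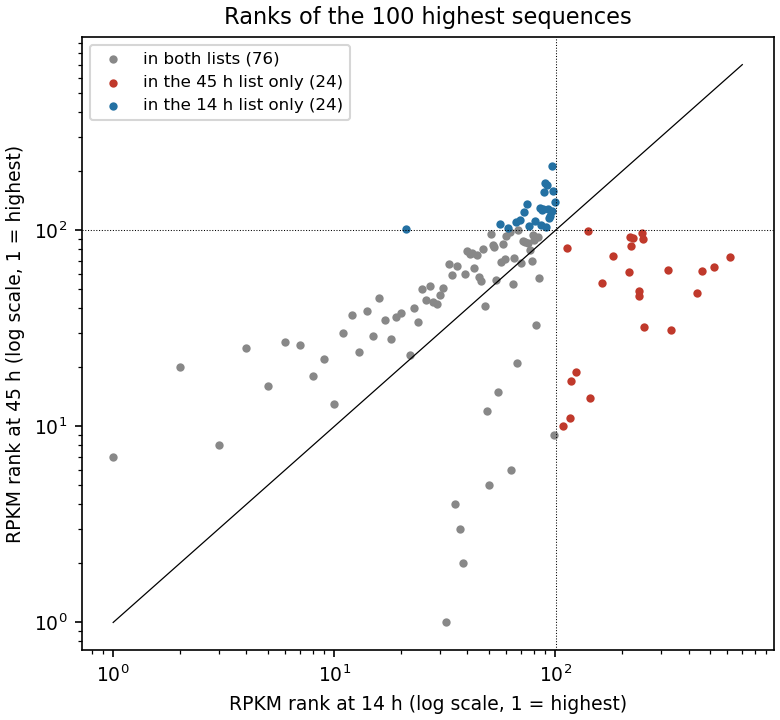
RPKM rank at 45 h (vertical axis) against rank at 14 h (horizontal axis, both log scales, 1 being the highest) for every sequence among the 100 highest of either library. The line marks equal rank and dotted lines mark rank 100. The 76 shared sequences lie mostly above the line, while the 24 that entered the list at 45 h came from ranks 108 to 613.

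The sequences that led at 45 h were not the leaders of 14 h. The highest RPKM at 45 h belonged to a sequence of 1250 bases, at 2265 at 14 h and 10938 at 45 h, then 399.99 at 57 h and 512 at 88 h. It was rank 32, 1, 251 and 200 in that order, with a log2 ratio at 45 h of 2.27 (2.26 to 2.29). The next, of 1280 bases, had an RPKM of 2022 at 14 h and 7829.8 at 45 h, then 378 at 57 h and 481 at 88 h. The third, of 1523 bases, had 2069 at 14 h and 6354 at 45 h, then 136 at 57 h and 234 at 88 h. All 3 were thus higher at 45 h than in any other library and several-fold below their 14 h level afterwards. They were chosen for a high RPKM at 45 h, which favours a peak there. Sequences of 852 and 2099 bases, at ranks 5 and 9, showed the same order of the libraries. The 2099-base sequence shares its component with that of 1523 bases, so these may share reads.

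Other leaders of 45 h continued upward. The sequence of 7253 bases that has most reads in each library was rank 4 by RPKM, with a log2 ratio to 14 h of 1.12 at 45 h, then 1.75 at 57 h and 2.42 at 88 h. A sequence of 814 bases had an RPKM of 1488 at 14 h and 4291 at 45 h, then 10984 at 57 h and 6586 at 88 h. One of 693 bases went from rank 108 at 14 h to rank 10 at 45 h and was rank 2 at 57 h and rank 3 at 88 h. The remaining sequences of the 10 highest, of 1662 and 517 bases, were already at ranks 1 and 3 at 14 h and were lower at 45 h.

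**Figure D4:**
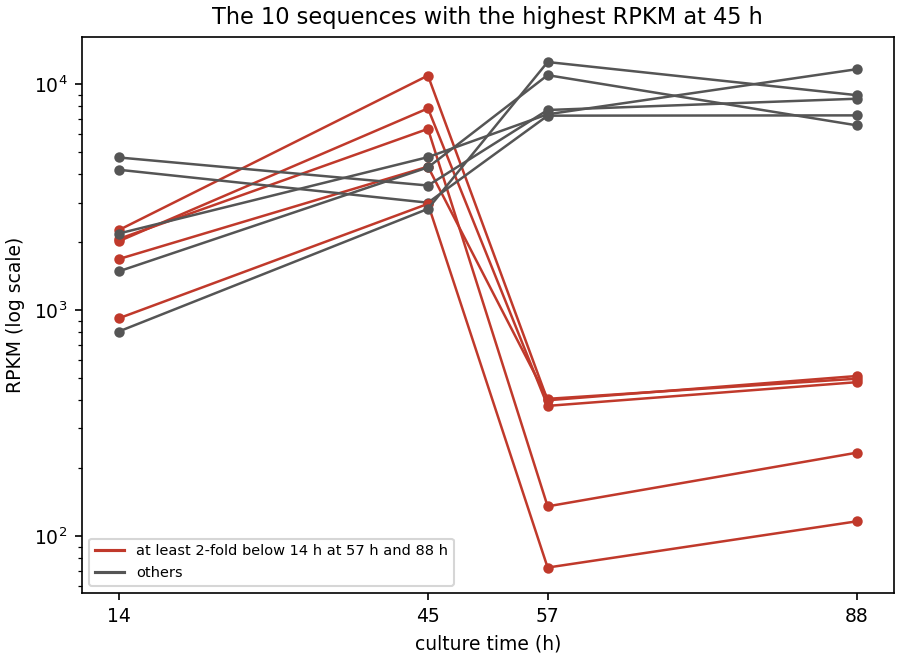
RPKM (vertical axis, log scale) at the 4 culture times (horizontal axis, h) of the 10 sequences with the highest RPKM at 45 h, 1 line per sequence and 1 library per point. Red lines mark 5 sequences that peak at 45 h, up to 10938, and lie at least 2-fold below their 14 h value at 57 h and 88 h, and grey lines mark the other 5, which are all higher at 57 h than at 14 h.

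In the list of 100 at 45 h, 24 sequences from 21 components were new. Their median rank was 222.5 at 14 h and 61.5 at 45 h, then 885.5 at 57 h and 749 at 88 h. Most were therefore at the head of the list at 45 h alone, and 5 of the 24 were among the 100 highest at both late times. Their better rank at 45 h than at 14 h is set by how the 24 were chosen, and that choice favours a peak at 45 h. Of all 100 sequences highest at 45 h, 29 were at least 2-fold higher than at 14 h. At both 57 h and 88 h, 19 of these 29, from 16 components, were at least 2-fold below 14 h, 6 were at least 2-fold above it and 3 were within 2-fold. Of all 13920 sequences, 40.1% were below and 11.5% above 14 h at both times, and of the quartile of higher sequences with the highest RPKM at 45 h, 40.1% and 30.1%. The log2 ratio of 57 h to 45 h in those 19 lay between -5.71 and -3.41. A fall of 2-fold or more at that step is set by how the 19 were chosen. The 24 sequences that left the list at 45 h moved less, with log2 ratios of -1.63 to -0.25 and a median rank of 87.5 at 14 h and 124.5 at 45 h, then 109 at 57 h and 101.5 at 88 h. Of these, 10 were back among the 100 highest at both late times.

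Whether a difference persisted was read from the ratios to 14 h at 57 h and 88 h. All these ratios share the 14 h library, so a chance high or low count there moves all of them the same way. Over all 13920 sequences, the 2-fold limit was passed upward by 13.4% and downward by 43.2% at 57 h, and by 13.3% and 45.1% at 88 h. Their typical sequence was lower too, at a median log2 ratio of -0.75 for 57 h and -0.83 for 88 h.

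Sequences lower at 45 h mostly stayed lower. Of the 809, 642 (79.4%) were at least 2-fold below 14 h at both late times, against 40.1% of all sequences, 116 were within 2-fold and 6 were at least 2-fold higher. Their median log2 ratio went from -1.26 at 45 h to -2.44 at 57 h and -2.44 at 88 h. The median RPKM of the 642 was 28.7 at 14 h and 11.4 at 45 h, then 3.09 at 57 h and 3.12 at 88 h, on the scale of library totals, on which the typical sequence was also lower at the late times. From 45 h to 57 h, 424 of the 642 were a further 2-fold or more lower. Their median log2 ratio for that step was -1.46, against -0.74 over all 13920 sequences. The 642 were chosen in part for a low level at 57 h, which favours such a fall. The 6 with the opposite course had a median RPKM of 16.2 at 14 h and 6.22 at 45 h, then 72.2 at 57 h and 73.4 at 88 h.

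Sequences higher at 45 h had no common later course. Of the 1446, 432 (29.9%) were at least 2-fold above 14 h at both late times, 400 (27.7%) were within 2-fold at both and 371 (25.7%) were at least 2-fold below it at both. In the other 243 the late libraries fell in different classes. For all sequences the corresponding shares were 11.5% above, 36.6% within and 40.1% below. The median log2 ratio of the 1446 was 1.41 at 45 h, then 0.02 at 57 h and 0.16 at 88 h.

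**Figure D5:**
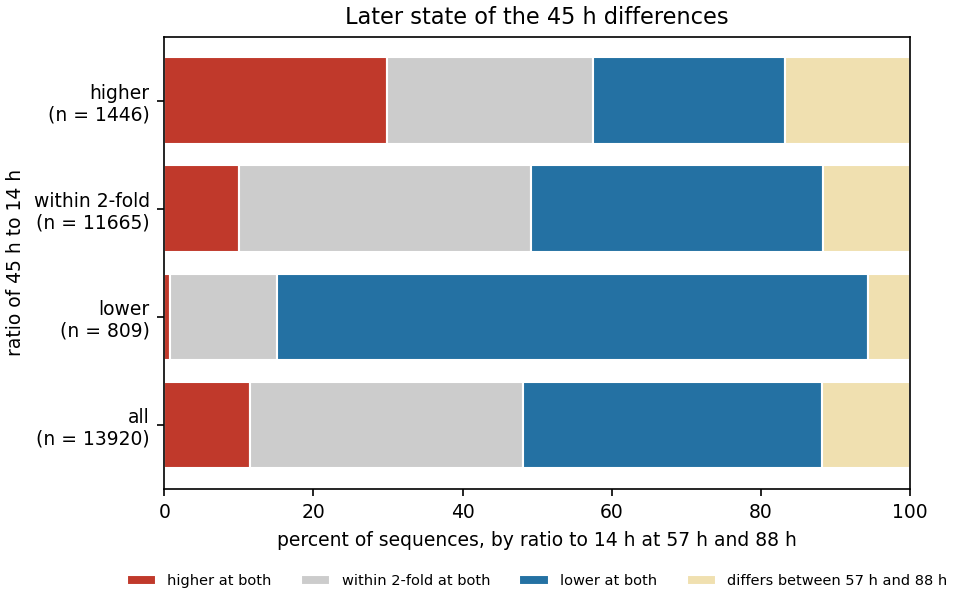
Share of sequences (horizontal axis, percent) that were at least 2-fold above, within 2-fold of, or at least 2-fold below 14 h at both 57 h and 88 h, or in different classes at these times, for sequences higher, within 2-fold or lower at 45 h and for all. Of the lower sequences 79.4% stay lower, while the higher ones split into 29.9%, 27.7% and 25.7%.

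These shares depend on the scale of the late libraries. Relative to the median ratio at each time, 25.4% of all sequences passed 2-fold upward and 24.1% downward at 57 h, and 25.8% and 23.6% at 88 h. On that scale 649 of 1487 higher sequences (43.6%) were higher at both late times, against 22.8% of all, and 189 (12.7%) were lower at both. Of 771 lower sequences, 482 (62.5%) were lower at both, against 20.7% of all, and 24 (3.11%) were higher at both. The share of the higher sequences that persisted was thus larger on this scale, and that of the lower ones smaller, than on the scale of library totals.

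The higher sequences with different later courses differed in level. The 432 that stayed higher had a median RPKM of 2.17 at 14 h and 6.0 at 45 h, then 13.6 at 57 h and 14.0 at 88 h, so their typical level went on upward. In this set 163 were at least 2-fold higher again at 57 h than at 45 h, 32 were at least 2-fold lower and 237 were within 2-fold. Their median log2 ratio for that step was 0.67, against -0.74 over all 13920 sequences. The 432 were chosen in part for a high level at 57 h and 88 h, which favours such a rise. They came from 183 components, with 35 of them in the largest. The 400 that returned had a median RPKM of 5.26, 15.4, 4.64 and 5.32 in the order of the times. The 371 that turned below their start had a median RPKM of 10.9 at 14 h and 32.3 at 45 h, then 2.21 at 57 h and 2.91 at 88 h. Their median log2 ratio of 57 h to 45 h was -3.59, where a fall of 2-fold or more is set by how the 371 were chosen. Their size of change at 45 h hardly differed from the others, with median log2 ratios of 1.43, against 1.38 in those that stayed and 1.37 in those that returned.

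Split by RPKM at 45 h, the higher sequences stayed higher most often where they were rare. In the lowest quartile, up to 4.42 RPKM, 48.6% were higher at both late times and 5.52% lower at both. In the highest quartile, from 44.6 RPKM, 30.1% were higher and 40.1% lower. The quartile from 14.4 to 44.5 RPKM, had the smallest share that stayed, at 12.7%, so the share did not change steadily with level. Among all sequences of the same RPKM ranges, from lowest to highest, 15%, 12.7%, 7.13% and 11.1% were higher at both late times, so the range of 14.4 to 44.5 RPKM was the lowest there too. The share of all sequences lower at both was 29.4% in the lowest and 45.5% in the highest range. Large components weigh on the lowest quartile, whose 362 sequences came from 113 components, against 243 in the highest. Whether counting error or shared reads have a part in this was not tested.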

How the data were processed

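RNA was sequenced at 4 culture times, with 1 library each. Per the labels' protocols, total RNA was extracted with TRIzol and libraries followed standard Illumina protocols. Per the submitters' processing notes the aligner was BWA. The sources used here do not give the reference, assembler, read filters, strandedness or handling of shared reads. Per the file headers, the authors deposited a read count per sequence, the library total, the length and an RPKM, which equalled the count scaled by both other columns (largest difference 3.8e-11).

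The stated library totals, in order of time, were 12495251, 11874560, 12130407 and 12077745 reads. Counts summed to 1.27 to 1.36 times these, and the sources used here do not say why. If reads were counted more than once, the intervals are too narrow. Log2 ratios used reads plus 0.5 over the stated total, a floor of 10 mean reads and a 2-fold limit. Components are identifiers without the sequence number. Groups are the labelled times. The 4 printed identifiers have the highest and lowest ratio of 45 h to 14 h among sequences with 100 mean reads or more, 1 per component. Members, lists and alternatives were chosen with earlier results of these data known. The alternatives were other library scalings (edgeR's TMM among them), floors, pseudocounts, limits and ways to count components. The ratio and interval were tested on simulated counts, drawn independently for each sequence with counting error only. Shared reads and differences between cultures grown alike were not simulated, so that test does not bear on them. The tools were edgeR 4.0.16 in R 4.3.3, and in Python 3.11.15 the packages scipy 1.17.1, pandas 2.3.3, numpy 2.4.6 and, for figures, matplotlib 3.10.9.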

Additional observations from a re-analysis of the deposited data

How the results depend on the processing

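With 1 library per time, none could be left out, and differences between cultures grown alike cannot be told apart from differences between times. No paired analysis was possible because there is a single library at every time. Of 73 alternative counts and shares, 50 stayed within 1.5 times the reported value, none of the 24 alternative ratios of the 4 identified sequences left its counting interval, and no sign reversed. Scaling hardly touched the step itself, with 1419 to 1537 higher and 739 to 844 lower sequences under 5 scalings. It moved persistence, where centring on the median gave 649 sequences higher at all 3 times. A floor of 50 reads gave 272. With the whole counting interval beyond 2-fold there were 784 higher and 336 lower sequences, 149 and 308 that persisted, and 359 and 187 components. At 1.5-fold these were 2699 and 2466, 958 and 1886, and 1018 and 1056. With 1 sequence per component, 5579 entered, with 621 higher, 419 lower, and 145 and 356 that persisted. Summed per component they were 617, 403, 144 and 336. Fewer units enter both, with 11.1% and 11% higher against 10.4% as reported, 7.51% and 7.19% lower against 5.81%, and 23.3% of the higher ones persisting in both against 29.9%. Ranked by reads, 68 of the 100 highest were shared. Of the 10 highest RPKM 20% were shared, against 70% to 76.4% in lists of 50 or more. Depth limits sequences near the floor, where the intervals are widest.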

Other observations

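Among the sequences over the floor, 12 had the same counts in all 4 libraries as another sequence, in 6 pairs, of which 3 lay within 1 component. The component with most lower sequences at 45 h, with 17 of 33 sequences over the floor at least 2-fold lower, differed from most lower sequences in its later course. Its median log2 ratio to 14 h was -1.12 at 45 h, 0.13 at 57 h and 0.10 at 88 h, on a median of 67 mean reads. Another component, with 14 of 16 sequences lower, had medians of -1.22, -1.69 and -2.31 at the same times. Components with 1 sequence had more differences than those with many, at 12.3% higher and 9.07% lower for components of 1 sequence and 9.42% and 3.64% for those of 10 or more without the largest. The latter have fewer reads per sequence, with a median of 63.5 mean reads against 498.8.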
